A study of Mus musculus with 24 samples.

Results

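NELF sites with moderately extended SPT5 lie where 2 subunits of the negative elongation factor (NELF) gave ChIP-seq peaks in mouse embryonic stem cells. At these sites the peak of 1 library of the subunit NELFE was compact, and the elongation factor subunit SPT5 gave a longer one. The sites were chosen from the peak lists of 6 libraries. Each list gave its 10000 peaks of highest pileup (mean ChIP coverage) on chromosomes 1 to 19, without chromosome 14 beyond 95 Mb. A site was a NELFE 1 peak shorter than 3000 bp that overlapped a peak of NELFE 2, NELFB:HA 1 and NELFB:HA 2. The lengths of those overlapping peaks were not limited. Their upper quartiles at the chosen sites were 3317 bp in NELFE 2, 3391 bp in NELFB:HA 1 and 3828 bp in NELFB:HA 2. It was moderately extended when its longest overlapping SPT5 peak was at least 3000 and below 8000 bp long in both SPT5 libraries. The rule found 779 such sites, 7.79% of the 10000 NELFE 1 peaks, among 5687 NELF sites below 3000 bp that had SPT5 in both libraries. Focal sites, with SPT5 below 3000 bp in both libraries, numbered 2646, and long SPT5 domains, with 8000 bp or more in both, numbered 305. With the SPT5 length taken from 1 library alone, the number was 1423 without SPT5 1 and 2074 without SPT5 2. SPT5 length in both libraries and the limit on NELFE 1 length therefore chose the 779 sites, and neither is a finding.

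All 6 libraries came from E14 mouse embryonic stem cells of the genotype Nelfb deg, cultured in serum/LIF, with the treatment given as Control. The genotype carries NELFB with an HA tag, so the controls share the tagged allele with the samples treated with the degrader dTAG-13. Each antibody had 2 libraries, namely the HA tag antibody C29F4 for NELFB:HA, ab170104 for NELFE and BD611106 for SPT5. The labels do not say that the replicates were separate cultures or whether the line was 1 clone, so a p-value measures only the spread between these libraries. The other 18 of the 24 samples are not analysed here. Filtered depth ran from 27324697 to 62312558 tags per library, and the lowest pileup that entered the analysis lay between 11.48 and 19.18. The SPT5 libraries had tags of 100 and 101 bp and shared 1 input, whereas NELFB:HA and NELFE tags were 50 bp long, each library with its own input, so antibody and sequencing batch cannot be told apart in any comparison with SPT5. Of 10 embryonic stem cell markers in the promoter table, 8 (Pou5f1, Sox2, Klf4, Zfp42, Tfcp2l1, Tdgf1, Utf1 and Fgf4) had a peak in all 6 libraries, Nanog and Esrrb did not, and none of 3 fibroblast, 2 endoderm and 4 neural markers did.

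RNA polymerase II commonly stops shortly after it starts a gene. NELF and DSIF, a complex of SPT4 and SPT5, hold it there, and phosphorylation by P-TEFb releases it, after which NELF leaves and SPT5 travels on with the polymerase into the gene. NELFB and NELFE are both subunits of NELF, and a compact peak of either marks the pause region, whereas an SPT5 peak can run into the transcribed body.

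The promoters of 6 of these sites are printed as examples, and the shares and medians below do not rest on these 6. Eif1 had very strong NELF signal and extended SPT5 downstream. Pam16, Txnip and Snhg5 had the largest SPT5 reach in the direction of transcription, and Upf3a and Sugt1 had SPT5 extended to the other side. At Sugt1 the stretch on that side held another NELFE 1 peak. Each window runs 5′ to 3′ in the direction of the gene, from 250 bases before the start to 50 after it, from RefSeq on GRCm38.p6, the same assembly as the mm10 of the files. Capitals mark any of the 7 motifs searched on both strands.
Eif1, chr11:100319699-100319998, + strand: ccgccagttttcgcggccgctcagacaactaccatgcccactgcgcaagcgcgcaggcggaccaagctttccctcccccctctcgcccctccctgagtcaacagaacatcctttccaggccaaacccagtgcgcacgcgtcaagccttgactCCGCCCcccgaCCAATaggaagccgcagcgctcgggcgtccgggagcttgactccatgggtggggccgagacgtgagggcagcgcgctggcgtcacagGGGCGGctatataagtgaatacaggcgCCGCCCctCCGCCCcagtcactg
Pam16, chr16:4624897-4625196, - strand: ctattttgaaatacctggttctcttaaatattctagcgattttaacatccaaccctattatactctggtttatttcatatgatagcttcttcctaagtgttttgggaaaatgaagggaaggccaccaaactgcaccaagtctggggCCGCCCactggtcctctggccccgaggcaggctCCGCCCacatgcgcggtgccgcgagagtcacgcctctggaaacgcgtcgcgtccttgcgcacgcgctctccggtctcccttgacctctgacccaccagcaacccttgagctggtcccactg
Txnip, chr3:96557707-96558006, + strand: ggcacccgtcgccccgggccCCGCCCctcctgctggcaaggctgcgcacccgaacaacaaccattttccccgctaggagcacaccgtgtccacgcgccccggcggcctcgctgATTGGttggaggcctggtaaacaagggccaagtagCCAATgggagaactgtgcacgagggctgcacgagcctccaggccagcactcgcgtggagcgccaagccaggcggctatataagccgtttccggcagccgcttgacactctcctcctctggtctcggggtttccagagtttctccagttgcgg
Snhg5, chr9:88522848-88523147, - strand: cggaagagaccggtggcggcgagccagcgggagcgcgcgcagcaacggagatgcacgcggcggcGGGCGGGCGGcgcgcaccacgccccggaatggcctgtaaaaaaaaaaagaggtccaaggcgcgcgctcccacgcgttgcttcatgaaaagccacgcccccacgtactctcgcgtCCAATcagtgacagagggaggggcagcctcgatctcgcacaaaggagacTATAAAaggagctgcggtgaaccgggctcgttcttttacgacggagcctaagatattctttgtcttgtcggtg
Upf3a, chr8:13785365-13785664, + strand: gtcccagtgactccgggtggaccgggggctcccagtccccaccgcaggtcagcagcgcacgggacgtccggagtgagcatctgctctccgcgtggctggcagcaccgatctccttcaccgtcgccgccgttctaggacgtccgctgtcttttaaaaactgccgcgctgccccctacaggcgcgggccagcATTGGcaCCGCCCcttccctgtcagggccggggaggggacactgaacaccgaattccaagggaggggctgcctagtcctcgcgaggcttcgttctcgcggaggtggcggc
Sugt1, chr14:79587410-79587709, + strand: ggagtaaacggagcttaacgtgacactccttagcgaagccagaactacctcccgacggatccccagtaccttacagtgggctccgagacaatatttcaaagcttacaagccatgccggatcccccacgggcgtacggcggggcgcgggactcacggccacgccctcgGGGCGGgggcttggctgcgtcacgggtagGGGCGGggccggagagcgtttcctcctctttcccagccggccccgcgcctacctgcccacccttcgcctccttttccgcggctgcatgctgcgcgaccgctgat
GC boxes stood in all 6 windows, those of both directions, CCAAT boxes in 4 (Eif1, Txnip, Snhg5 and Upf3a) and TATAAA in Snhg5.

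The 779 sites differed from focal sites in their NELF peaks as well, which were longer and stronger. The median NELFB:HA peak at a moderately extended site was 2384 bp in replicate 1 (quartiles 1648 and 3391) and 2600 bp in replicate 2 (1757 and 3828), where focal sites had 1820 and 2090 bp. The difference was 537 bp (564 and 510 bp in the libraries, SD 38.2, n = 2). Both libraries moved the same way, and the two-sided exact sign-flip test over 2 libraries gave p = 0.5, the smallest p it can give. Long SPT5 domains had still longer NELFB:HA peaks, 2650 and 3124 bp, and the moderately extended sites lay 395 bp below them (differences of -266 and -524 bp, SD 182, n = 2, exact sign-flip p = 0.5). The 3 classes were thus graded in NELFB:HA length in the order of their SPT5 length in each library, and their quartiles overlapped.

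**Figure D1:**
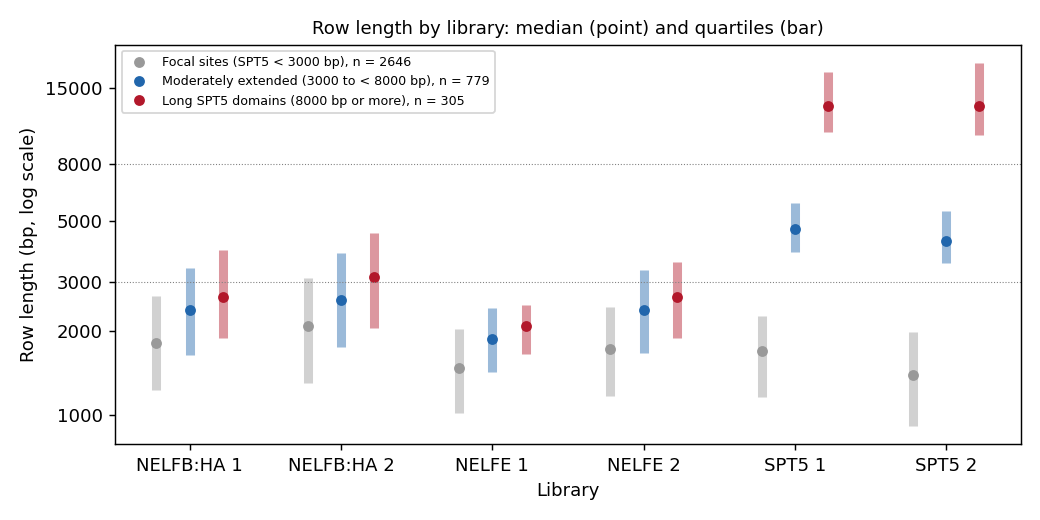
Peak length in each of the 6 libraries (log scale, bp), with the median as a point and the quartiles as a bar, for focal sites (grey), moderately extended sites (blue) and long SPT5 domains (red). SPT5 lengths were fixed by the rule; in the NELFB:HA and NELFE libraries the blue medians, 1879 to 2600 bp, lie between the grey and the red ones, with overlapping bars.

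Between the 2 NELF subunits, median length over the 779 sites was 2492 ± 153 bp in NELFB:HA (SD, n = 2) and 2135 ± 362 bp in NELFE (SD, n = 2), a difference of 357 bp beside a pooled SD of 278 bp. The rule held NELFE 1 below 3000 bp, so its median of 1879 bp was set in part by the choice of sites and the difference is a description. NELFE 2, which the rule did not limit, had a median of 2391 bp, between the 2384 and 2600 bp of the NELFB:HA libraries and 101 bp below their mean. Without NELFE 2 the difference was 622.5 bp and rested on NELFE 1 alone.

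NELF enrichment over input was higher at moderately extended than at focal sites in every NELF library, and the medians of SPT5 enrichment were closer together. The authors' fold enrichment, their own value for each peak, had medians of 5.61 and 4.34 in the NELFB:HA libraries against 4.34 and 3.41 at focal sites. In NELFE the medians were 6.83 and 6.73 against 5.24 and 5.49, and in SPT5 3.12 and 2.99 against 2.97 and 2.85. Ranked within each list, the median site stood at the 72.4th to 75.1st percentile of NELF pileup in the 4 NELF libraries, where focal sites stood at the 55.2nd to 56.5th. In SPT5 the percentiles were 64.3 and 61.2 for moderately extended and 63.3 and 63.3 for focal sites. All of these lists share the same top ranks by construction, so the percentiles describe order within a list and carry no test.

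Most of the sites lay at gene starts. Promoter windows were at hand for the chromosomes other than 18, which left 752 sites, 27 being on chromosome 18. The promoter table did not hold every gene, with 10 of 12 listed embryonic stem cell markers in it. Starts can therefore be missed on the other chromosomes too. A start lay in or within 500 bp of the NELFE 1 peak at 590 of them (78.5%, 95% Wilson interval 75.4 to 81.2), beside a background of 79.1% over all NELF sites below 3000 bp with SPT5, the 779 included. The share was 65.6% at NELF sites without SPT5 in both libraries and 70.6% over all NELFE 1 peaks used. These intervals cover counting error only, since regions are not replicates. At 428 sites the starts were on 1 strand (405 of them with a protein-coding gene and 23 with a lncRNA only), and these give SPT5 a direction. Starts on both strands were found at 162 of the 590 (27.5%, Wilson 24.0 to 31.2). That share was 22.2% over all NELF sites with SPT5 and 19.4% over focal sites, and these differences were not tested. The order of such starts along the chromosome was not examined, so these sites need not be divergent promoters.

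At sites with starts on 1 strand, the added SPT5 ran mainly downstream, into the gene. Reach was measured as the distance by which a peak passed the end of the NELFE 1 peak on each side. In SPT5 1 the median reach was 644.5 bp upstream and 1909 bp downstream, and in SPT5 2 it was 430.5 and 1821.5 bp. The other 3 libraries reached about equally far on both sides, with medians of 138 and 158.5 bp in NELFB:HA 1, 180 and 215 bp in NELFB:HA 2 and 131 and 213 bp in NELFE 2. The rule fixed how long SPT5 was but not the side on which its length lay.

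The site by site difference, downstream minus upstream, had a median of 1218 bp in SPT5 1 and 1375 bp in SPT5 2, and of 0 bp in both NELFB:HA libraries and in NELFE 2. SPT5 (1296.5 ± 111 bp, SD, n = 2) exceeded NELFB:HA (0 ± 0 bp, n = 2) by 1296.5 bp against a pooled SD of 78.5 bp. The libraries of the 2 antibodies did not overlap, and the two-sided exact permutation test gave p = 0.333, its smallest possible value with 2 against 2. This test was added after the values were seen. SPT5 length chose the sites, whereas NELFB:HA length was free. The size of the difference was therefore set in part by the rule, and the test supports nothing.

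**Figure D2:**
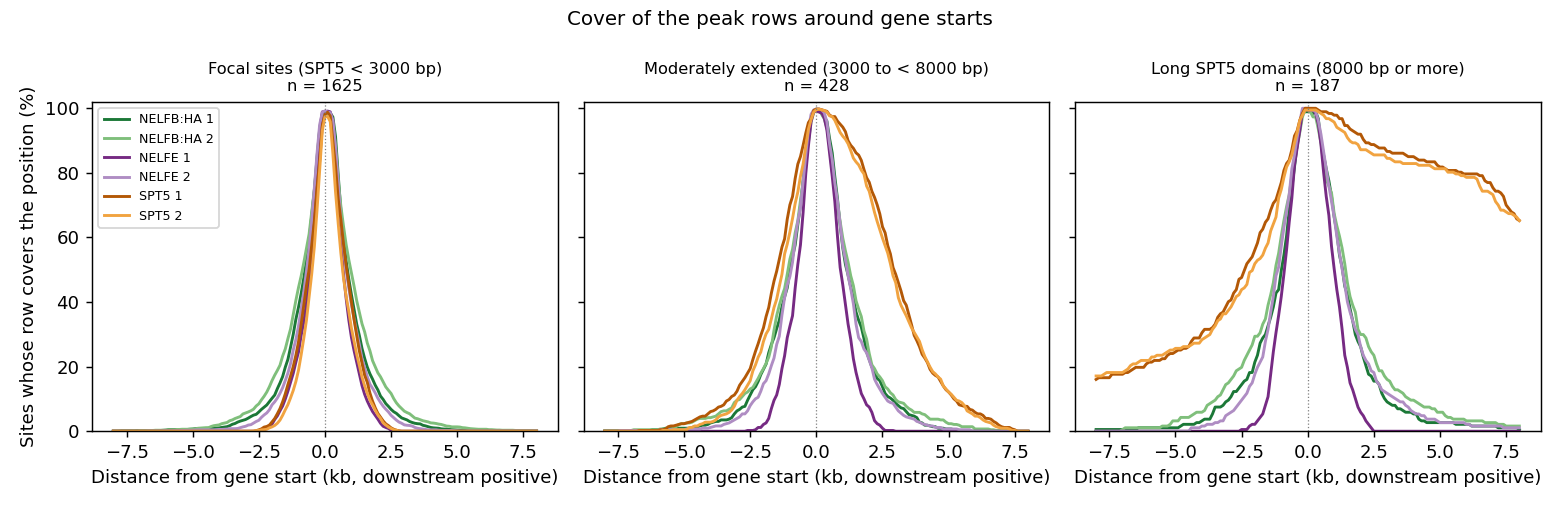
Share of sites (%) whose peak covers each position from 8 kb upstream to 8 kb downstream of the gene start, per library, at focal (n = 1625), moderately extended (n = 428) and long (n = 187) sites with starts on 1 strand. In the middle panel SPT5 covers 77.1% and 74.3% of sites at 2 kb downstream and 32.0% and 27.8% at 2 kb upstream, while the 4 NELF curves are close to symmetrical.

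Positions along the gene gave the same picture. At 1 kb downstream of the start, SPT5 covered 94.2% and 91.4% of the 428 sites and the NELF libraries 45.3 to 59.8%. At 3 kb downstream SPT5 still covered 48.6% and 46.0%, and NELFB:HA and NELFE 0 to 9.8%. The downstream SPT5 edge lay at a median of 2919 and 2855.5 bp from the start, and the NELFB:HA edge at 1153 and 1236 bp. Upstream, the SPT5 edges, 1485.5 and 1275 bp from the start, were nearer to those of NELFB:HA at 989 and 1053.5 bp. That SPT5 covered more positions than NELF follows from the lengths in the rule. The distance between the SPT5 and NELFB:HA edges was larger on the downstream side. SPT5 did not pass NELFE 1 upstream at 21.96% and 27.10% of the sites, and downstream at 6.54% and 8.41%. For NELFB:HA 1, NELFB:HA 2 and NELFE 2 these shares were 35.3 to 36.0% upstream and 36.2 to 36.9% downstream.

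Counted by site, SPT5 reached further downstream than upstream in both libraries at 252 of the 428 (58.9%, Wilson 54.2 to 63.4), beside 35.2% over all NELF sites with SPT5 and starts on 1 strand. It reached further upstream in both at 56 (13.1%), beside a background of 15.5%. At the remaining 120 the libraries went to opposite sides. The background includes 901 of 3402 sites with equal reach on both sides in a library, which none of the 428 had, since the rule makes SPT5 longer than NELFE 1. Focal sites had 22.1% downstream in both, in part because 714 of their 1625 had equal reach on both sides in a library, and long domains had 77.0%. Among sites where both libraries went the same way, which leaves such ties out, 81.8% of 308 moderately extended sites went downstream (Wilson 77.1 to 85.7), beside 69.4% of 1726 over all NELF sites with SPT5, 58.3% of 616 focal sites (54.3 to 62.1) and 80.9% of 178 long domains (74.5 to 86.0). On that measure the moderately extended sites resembled long domains, with overlapping intervals, and lay above focal sites.

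Taken singly, SPT5 1 went further downstream at 308 of 428 sites (72.0%, background 54.4%) and SPT5 2 at 316 (73.8%, background 50.8%). NELFB:HA 1 did so at 190 (44.4%, background 42.9%), with 184 upstream and 54 equal. NELFB:HA 2 did so at 186 (43.5%, background 44.1%) and NELFE 2 at 189 (44.2%, background 43.1%). The NELF shares were within 2 percentage points of their backgrounds. The SPT5 shares were above theirs, in part by the rule, since the SPT5 libraries had 0 sites of equal reach here and the background holds many. The 2 SPT5 libraries gave related values site by site, with a Pearson r of 0.480 and a Spearman rho of 0.460 over 428 sites, which share their NELFE 1 edges and the SPT5 input.

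**Figure D3:**
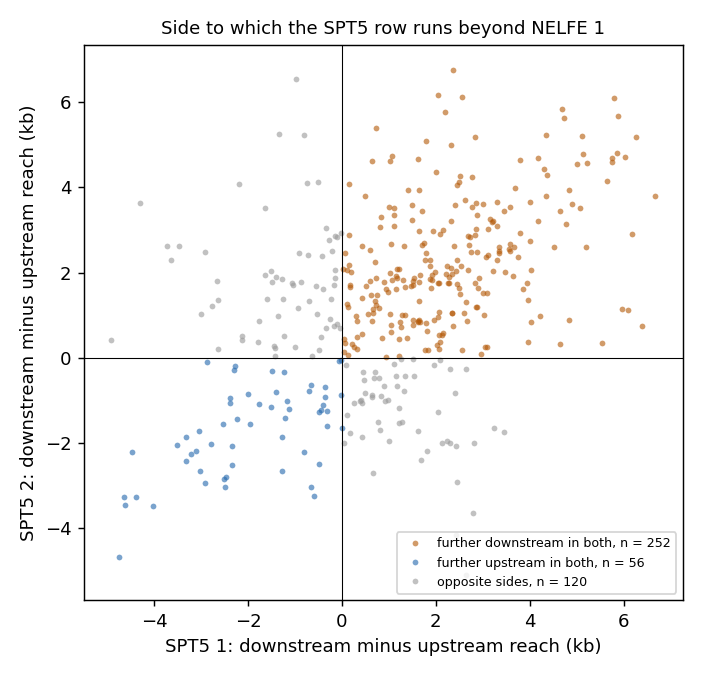
Downstream minus upstream reach of SPT5 (kb) in library 1 (horizontal) and library 2 (vertical) at the 428 sites with starts on 1 strand, 1 point per site. The 252 points further downstream in both are in the upper right, the 56 further upstream in both in the lower left, and the 120 with opposite sides in grey.

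Few of the sites had a neighbouring start or NELF peak in the stretch that SPT5 added. Another gene start or NELFE 1 peak lay in the added stretch at 8 of the 252 sites extended downstream (3.17%). On the upstream side it was 10 of the 56 extended upstream (17.9%), where all 7 additional starts were on the opposite strand. Without any such feature on either side, 403 sites remained, of which 243 went downstream in both libraries (60.3%, Wilson 55.4 to 64.96) and 46 upstream (11.4%), with medians of 1244 and 1404 bp in the 2 SPT5 libraries. A few sites shared 1 SPT5 peak with a neighbouring site, 16 sites in SPT5 1 and 18 in SPT5 2.

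In relation to gene length, the extension was short, which follows in part from the limit of 8000 bp on SPT5 length. The 405 protein-coding genes had a median length of 23655 bp (quartiles 11989 and 49834), close to 26756 bp at focal sites and well above 8905 bp at long domains. The downstream SPT5 edge stood at a median of 10.8% and 11.2% of the gene length, against 130% and 133% at long domains. SPT5 passed the annotated far end of the gene in both libraries at 37 of 428 sites (8.64%, Wilson 6.34 to 11.7), beside 5.47% over all NELF sites with SPT5, 0.246% at focal sites and 56.7% at long domains. Genes below 5 kb, 42 in number (10.4% of the coding genes), include several described next. The length of the reach bore little relation to the length of the gene (Spearman rho -0.123 over the sites, as a description). The rule limits SPT5 length, and with it the range of the reach.

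The 8 sites with the strongest NELF signal show how NELF and SPT5 peaks were arranged. Raver1, an RNA-binding partner of a splicing repressor, had NELFB:HA peaks of 1654 and 1525 bp, NELFE peaks of 2678 and 1596 bp and SPT5 peaks of 6693 and 4104 bp. Eif1, a factor that helps the ribosome choose the start codon, had NELFB:HA peaks of 5741 and 1834 bp, NELFE of 2744 and 3222 bp and SPT5 of 6494 and 6362 bp. SPT5 ran 3995 and 3649 bp past NELFE 1 downstream of Eif1 and 0 bp upstream in both libraries, passing the end of this 2151 bp gene by 3860 and 3514 bp. The NELF peaks of Eif1 were not compact in every library, since NELFB:HA 1 was nearly as long as SPT5.

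The direction varied among the other strong sites. At Upf3a, a factor of nonsense-mediated decay, SPT5 reached 3456 and 3039 bp upstream and 964 and 0 bp downstream. At Rab33b, a small GTPase of the Golgi, SPT5 1 went 2865 bp downstream and SPT5 2 4289 bp upstream, so the 2 libraries disagreed. Pnpla8, a phospholipase, had 1650 and 1025 bp upstream and 1686 and 1159 bp downstream, an almost even extension. Nfyc (a subunit of the CCAAT-binding factor NF-Y), Rnpc3 (a protein of the minor spliceosome) and Ywhae (a 14-3-3 protein) went further downstream in both libraries. Of the 8 sites with the highest NELF percentile, 6 were downstream in both, 1 upstream and 1 divided.

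The sites with the largest downstream reach were stretches of SPT5 that began at the NELF peak and ran several kilobases. At Pam16, part of the motor for protein import into mitochondria, the NELFB:HA peaks were 1142 and 551 bp, the NELFE peaks 1286 and 1149 bp and the SPT5 peaks 6459 and 7094 bp. SPT5 reached 5794 and 6112 bp downstream and 0 bp upstream in both libraries, and stopped inside the gene of 8481 bp. Here the 4 NELF peaks were all compact and SPT5 extended to 1 side only. Its SPT5 signal was weak within the class, at pileup percentiles of 32.0 and 15.0 beside class medians of 64.3 and 61.2.

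Txnip, which encodes an inhibitor of thioredoxin that also limits glucose uptake, had NELFB:HA peaks of 2833 and 1987 bp, NELFE peaks of 1798 and 1237 bp and SPT5 peaks of 7757 and 7572 bp. SPT5 reached 5917 and 5732 bp downstream and 42 bp upstream in both libraries, 3048 and 2863 bp past the end of the gene. Dusp12, a phosphatase, and Syvn1, a ubiquitin ligase of the endoplasmic reticulum, showed 6023 and 4722 bp and 5848 and 5069 bp downstream. Igfbp2, a binding protein of insulin-like growth factors, was less compact upstream, with 1445 bp in SPT5 2 against 237 bp in SPT5 1. Its SPT5 peaks were near the low end of the lists, at percentiles of 7.6 and 3.3, whereas those of Txnip stood at 75.4 and 65.8. Together these sites showed the extension both in genes that SPT5 passed and in genes that it did not.

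The 4 largest upstream reaches were as follows. At 5930403N24Rik SPT5 reached 4746 and 4679 bp upstream and 0 bp downstream, and the NELFB:HA peaks there were themselves 8950 and 5769 bp long. At Sugt1, a co-chaperone of HSP90, SPT5 reached 4982 and 3962 bp upstream and 598 and 686 bp downstream, with NELFB:HA 2 at 5533 bp and NELFE 2 at 5477 bp. Another NELFE 1 peak lay in the upstream stretch of SPT5 at Sugt1. Cisd1, an iron-sulphur protein of the outer mitochondrial membrane, had 5439 and 3472 bp upstream and NELFB:HA peaks of 704 and 4945 bp. Its upstream stretch of SPT5 held another gene start and another NELFE 1 peak, so the signal there need not belong to Cisd1. Ccdc77 had 4444 and 4424 bp upstream, with NELFB:HA peaks of 5025 and 3659 bp. At each of these 4 sites at least 1 NELF library had a peak of 4945 bp or more as well. That was also so at Snhg5 (5915 bp in NELFB:HA 1) and Rpl19 (5238 bp in NELFE 2) among the 8 with the largest downstream reach.

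**Figure D4:**
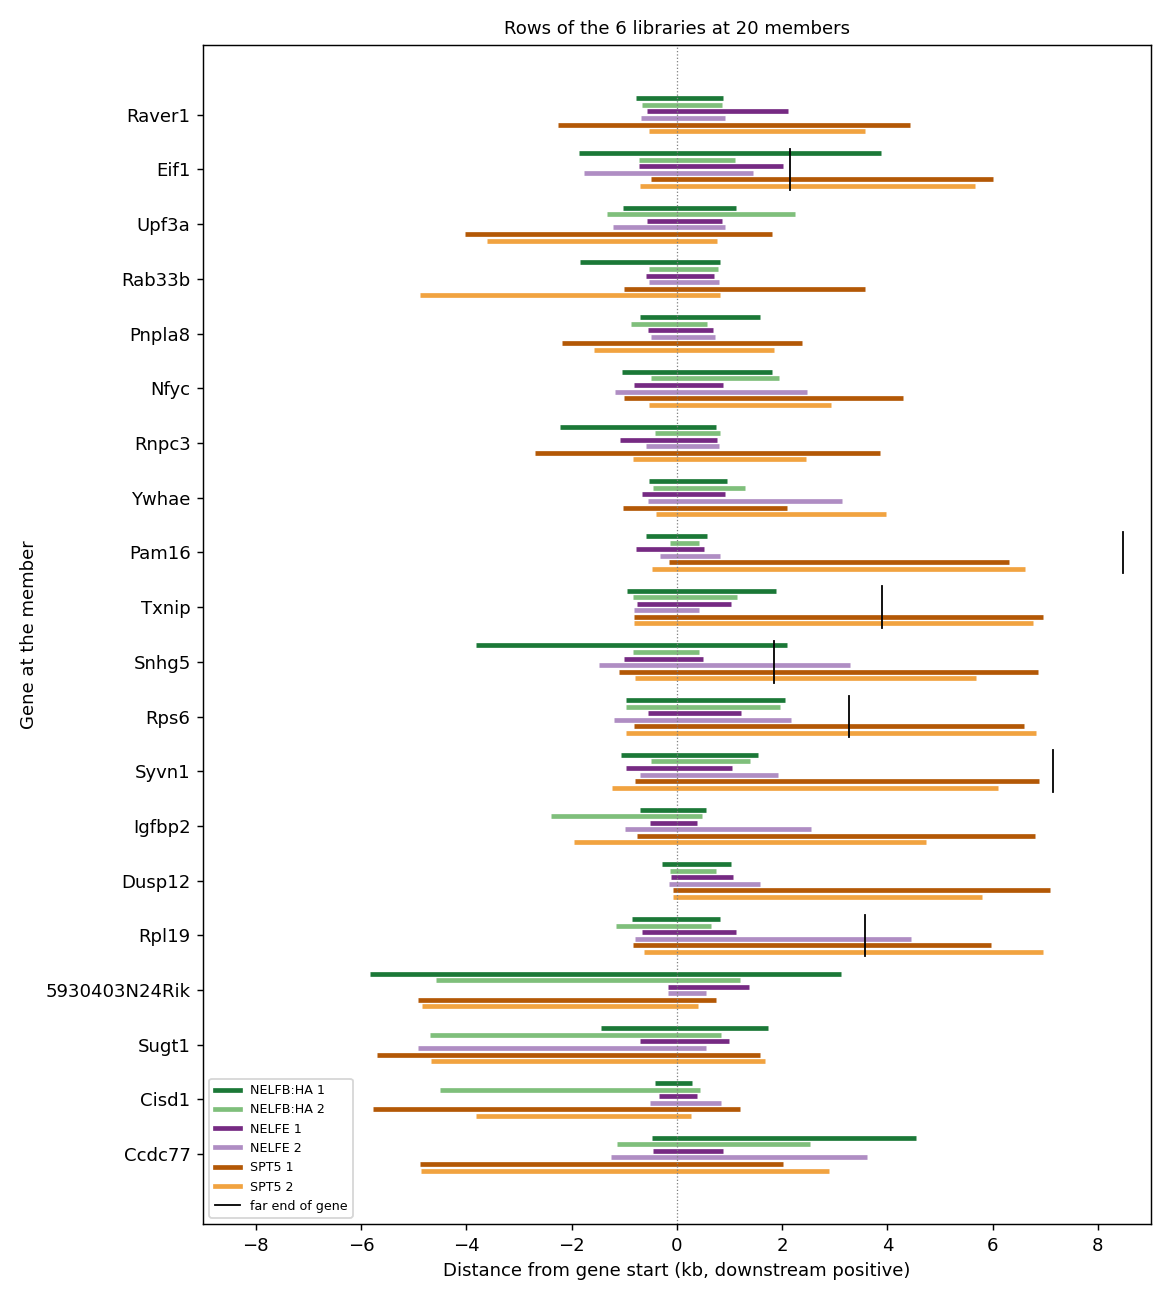
Peaks of the 6 libraries at 20 named sites, as bars along the distance from the gene start (kb, downstream positive), with a black line at the far end of the gene where it lies within the plot. From Pam16 to Rpl19 the orange SPT5 bars run to the right of the green and purple NELF bars; from 5930403N24Rik to Ccdc77 they run to the left.

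Ribosomal protein genes, each coding for a part of the ribosome, were found at long SPT5 domains more often than at moderately extended sites. Of 52 in the promoter table, 7 were at moderately extended sites (13.5%), 25 at long domains, 7 at sites with SPT5 lengths in different classes and 0 at focal sites, and 13 had a NELFE 1 peak of 3000 bp or more. The background over protein-coding genes was 4.05% of 16456 in the table and 14.1% of the 4747 with SPT5, against which 7 of the 39 ribosomal protein genes with SPT5 (17.9%) is close. The 7 were Rpl10a, Rpl11, Rpl19, Rpl27, Rpl35a, Rps13 and Rps6. SPT5 ran downstream in both libraries at all 5 that had starts on 1 strand. At Rps6 the SPT5 peaks were 7419 and 7792 bp and the reach 5387 and 5615 bp downstream and 271 and 416 bp upstream, which carried SPT5 3334 and 3562 bp past the end of a gene of 3269 bp. Rpl11, with 7983 and 7246 bp, and Rpl27, with 7047 and 6211 bp, passed their ends by 3531 and 2359 bp and by 3611 and 2296 bp. At Rpl27 another gene start lay in the downstream stretch of SPT5.

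Hosts of small nucleolar RNAs carry in their introns RNAs that guide rRNA modification. Snhg5, Snhg8 and Snhg20, 3 of 17 in the table (17.6%, background 4.05%) and 3 of the 8 with SPT5 (37.5%, background 14.1%), were at moderately extended sites. These backgrounds are over protein-coding genes, whereas the 3 hosts are lncRNAs. Long domains held 3 of the 8 as well (37.5%, background 5.50% of protein-coding genes with SPT5). At these 3 SPT5 went downstream in both libraries, as at 58.9% of all sites with starts on 1 strand. Snhg5 had SPT5 peaks of 7971 and 6494 bp, a reach of 6371 and 5197 bp downstream and 100 and 0 bp upstream, and passed the end of its 1846 bp by 5019 and 3845 bp. Snhg8 had 7994 and 5773 bp and Snhg20 6919 and 5279 bp. NELF at Snhg5 was uneven between replicates, at 5915 and 1264 bp in NELFB:HA and 1500 and 4756 bp in NELFE.

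Among cell cycle genes, 5 of 22 (22.7%, background 4.05%) and 5 of the 15 with SPT5 (33.3%, background 14.1%) were at moderately extended sites. They were Aurka, Cdc20, Cdk1, Cdkn1a and E2f1. Long domains held 3 of the 15 as well (20.0%, background 5.50%), and 5 were at sites with SPT5 lengths in different classes. Counts this small do not set the list apart from the background. Cdc20, an activator of the anaphase-promoting complex, had SPT5 peaks of 4918 and 3835 bp and a reach of 2550 and 1365 bp downstream against 214 and 316 bp upstream. Cdk1, the mitotic kinase, had 1008 and 2254 bp downstream against 308 and 0 bp. Cdkn1a, the inhibitor p21, had 4930 and 1172 bp against 96 and 296 bp. Cdc20, Cdk1 and Cdkn1a, 3 of the 4 with starts on 1 strand, went downstream in both libraries. E2f1 did not, and Aurka shares its site with Cstf1 on the other strand.

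Of the regulators of elongation and pausing, 3 of 26 were at moderately extended sites (11.5%, background 4.05%), 8 at focal sites and 0 at long domains. Of the 15 with SPT5 the 3 made up 20.0%, beside a background of 14.1%, and the background for long domains was 5.50%. Numbers this small do not set the list apart from the background. Hexim1, which inhibits P-TEFb, had SPT5 peaks of 7169 and 4705 bp that ran 4925 bp upstream in SPT5 1 and 1449 bp downstream in SPT5 2. Another NELFE 1 peak lay in the stretch that SPT5 added upstream of Hexim1. Cdk13, a kinase of the polymerase tail, had 2683 and 1249 bp upstream and 2248 and 19 bp downstream. Larp7, a protein of the 7SK particle that holds P-TEFb, shared its site with Zgrf1 on the other strand. Neither of the 2 sites with starts on 1 strand was downstream in both libraries.

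The remaining lists gave 1 to 3 genes each or none, beside a background of 4.05% of protein-coding genes in the table and 14.1% of those with SPT5. These counts are too small to be set against it. Translation factors had 3 of 14 (Eif1, Eif2s1 and Eif4g1), splicing factors 1 of 27 (Sf3b1, beside 9 at long domains), chaperones 1 of 17 (Cct8), the Myc family 1 of 7 (Max), DNA methylation factors 1 of 8 (Dnmt3l) and Id genes, dominant inhibitors of helix-loop-helix factors, 2 of 3 (Id3 and Id4). At Id3 SPT5 reached 2873 and 3345 bp downstream and 0 bp upstream, while NELFB:HA 1 and NELFE 2 had peaks of 5720 and 6062 bp. Of 18 pluripotency factors, Stat3 alone was at a moderately extended site, and 12 had a NELFE 1 peak of 3000 bp or more, which the rule leaves out. Immediate-early genes (0 of 17), glycolysis genes (0 of 13) and regulators of other lineages (0 of 15) had none, the last mostly because 12 of the 15 had no NELFE 1 peak among the 10000. Of the immediate-early genes 10 had a NELFE 1 peak of 3000 bp or more, and 6 were at NELF sites with SPT5. Of the glycolysis genes these numbers were 6 and 5.

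**Figure D5:**
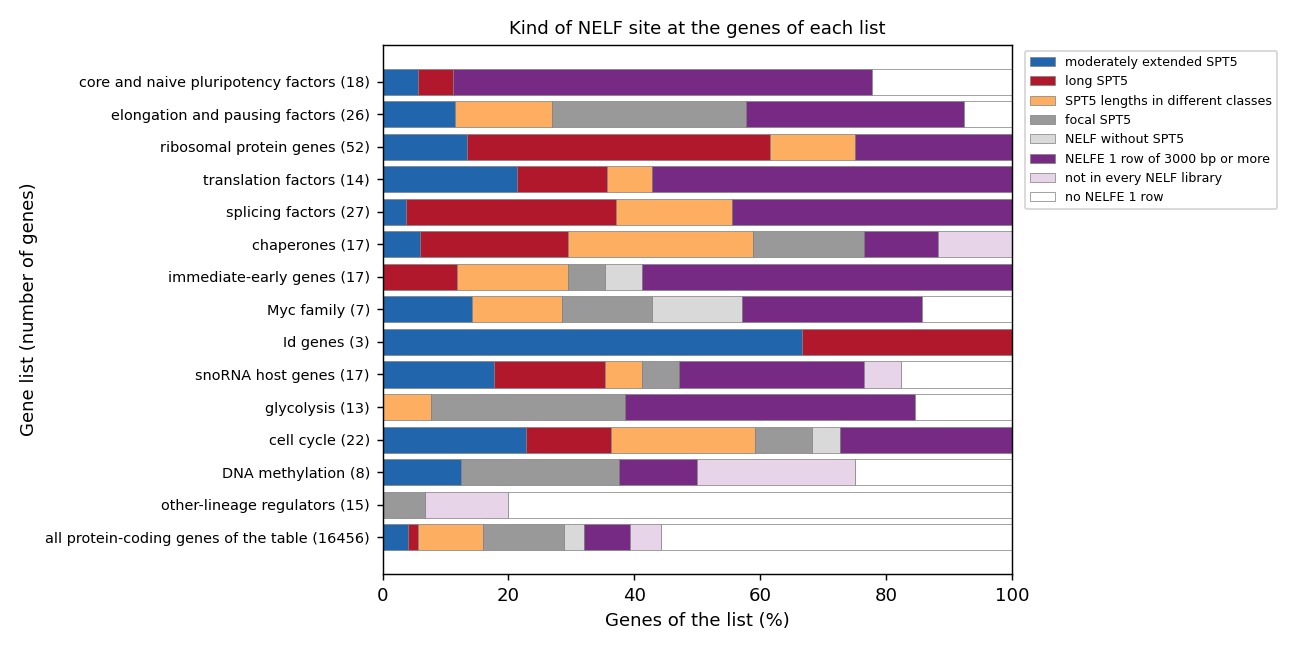
Share of the genes of each list (%, number of genes in brackets) at each kind of NELF site, with all 16456 protein-coding genes in the bottom bar. Moderately extended sites (blue) hold 7 of 52 ribosomal protein genes and 5 of 22 cell cycle genes, beside 4.05% of all protein-coding genes. Among genes at NELF sites with SPT5 these shares are 17.9% and 33.3%, beside 14.1%.

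Promoter sequence was that of CpG-rich promoters in all 3 classes. The median ratio of observed to expected CpG in the 300-base windows was 0.854 at moderately extended sites (interval of the median 0.838 to 0.879, n = 590), 0.818 at focal sites (0.810 to 0.827) and 0.895 at long domains (0.871 to 0.928), against 0.384 over all 32851 windows. The order followed the SPT5 classes, and the differences were small beside the spread within the class (quartiles 0.725 and 0.983). GC content was 63.0% at moderately extended sites and at long domains and 62.0% at focal sites.

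Motifs were matched on either strand as exact letters, with overlapping matches of different motifs allowed. The GC box GGGCGG, the letters of SP factors, was in 73.1% of the 590 windows, 71.6% at focal sites and 35.7% of all windows. CCAAT, the letters of NF-Y, was in 39.7%, beside 37.4% of all windows, and TATAAA in 5.76%, beside 13.6%. CCGGAAG, an ETS motif, was in 20.2%, below 24.6% at focal sites and 30.1% at long domains and above 8.86% of all windows. The E-box CACGTG was in 13.2% (10.9% at focal sites, 7.15% of all), the NRF1 motif GCGCATGC in 5.59% (7.68% and 2.71%) and the YY1 motif AAGATGGC in 5.59% (5.95% and 2.75%). A match of these letters is a description of the window and does not show that a factor bound there.

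The lower limit of SPT5 length cut through a continuous range. Just inside it were Wiz with 7811 and 3003 bp, Ldhb with 3005 and 4763 bp and an unnamed site at chr2:152707425-152708252 with 3343 and 3007 bp. Just outside were Rnf185 with 2998 and 3494 bp, Zbtb24 with 2997 and 3081 bp and Mpp6 with 4659 and 2997 bp. At the upper limit, Snhg8, Rpl11 and Snhg5 lay just inside with 7994, 7983 and 7971 bp in SPT5 1, and Btg2 with 8009 bp and Rad51ap1 with 8010 bp in SPT5 1 and Rps21 with 8015 bp in SPT5 2 just outside. Sites on either side of a limit therefore differed by a few base pairs, and the classes are ranges rather than kinds.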

How the data were processed

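The authors called broad peaks with MACS 2.1.1.20160309 for each library against an input, at p of 0.01 for strong and 0.1 for linking regions, per the file headers. Bowtie2, deepTools and mm10 are named in the submitters' processing notes. The deposited pileup is a coverage signal, compared only as ranks within a list. The deposited fold is a ratio to input. The −log10 p the authors deposited served for an alternative rank, and the −log10 q-value column the authors deposited was not used. Broad peaks end at the weak threshold, so length depends on depth and input.

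Overlap needed 1 bp. Starts and sequences came from RefSeq (GRCm38.p6). Without a genome, CpG was computed in 300-base promoter windows, not over the NELFE 1 peaks as planned. Genes were named by rule: the 8 sites of highest NELF percentile, the 8 largest downstream and 4 largest upstream reaches (all with starts on 1 strand), listed genes (at most 6 a list with values) and the 3 sites nearest each limit. Sites and lists were chosen with earlier results of these data known. Shares have 95% Wilson intervals and differences between libraries two-sided exact permutation tests; no test was run over regions. The procedure was tested on simulated data. Python 3.11.15, pandas 2.3.3 and scipy 1.17.1 were used.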

Additional observations from a re-analysis of the deposited data

How the results depend on the processing

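Of 104 alternatives for 7 results, 11 moved the value beyond its limits and 0 reversed its direction. The differences in NELF length were judged by direction alone. The number of sites, 779, was 378 with 5000 peaks per list, 431 with NELFE 1 peaks below 2000 bp, and 790 to 2074 when 1 library was left out (1423 without SPT5 1 and 2074 without SPT5 2, where a single library sets the class). The share of sites with SPT5 further downstream in both libraries, 58.9%, was 64.7% with 5000 peaks, 49.1% when the sides had to differ by more than 500 bp (chosen after seeing the data) and 58.6 to 73.75% with 1 library left out; without SPT5 1 (73.75%) or SPT5 2 (65.2%) only 1 library has to point downstream. The median downstream minus upstream reach of 1296.5 bp ranged from 965 bp (without SPT5 2) to 1382 bp with 1 library left out. The share with a gene start was 83.9% with 5000 peaks and 71.9% with 15000, and 77.4 to 79.3% with 1 library left out. NELFB:HA minus NELFE length, 357 bp, ranged from 249.5 bp (without NELFB:HA 2) to 622.5 bp (without NELFE 2) and was 551.5 bp with NELFE 1 below 2000 bp. Its planned exact permutation p was 0.667, and 0.333 to 1 over the alternatives, but the test uses NELFE 1 lengths that the rule limits and supports nothing. Over all alternatives NELFB:HA length over focal sites ranged from 424 to 606 bp and the CpG ratio from 0.848 to 0.878. The causes of these shifts were not tested, other than those that follow from the alternative itself.

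The labels number the replicates, but do not say that a number marks a shared culture or day. With the replicate block the NELFB:HA minus NELFE difference is 357 bp by arithmetic (505 and 209 bp in the pairs, SD 209, exact sign-flip p = 0.5, the smallest possible), with the same limit from NELFE 1. Differences between replicates 1 and 2 in peak length had r = -0.041 between NELFB:HA and NELFE across 779 sites, which does not settle whether the numbers pair the libraries. They were treated as unpaired. The file headers also number these libraries differently from the titles. Peak edges rest on the authors' threshold, and with 2 libraries per antibody no exact test could pass 0.05.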

Other observations

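At 162 of the 752 sites no gene start of the promoter table lay within 500 bp. Of these, 103 were at an end of a gene in the RefSeq gene table, 31 within a gene and 28 between genes. The nearest start of the promoter table lay a median of 35670 bp from the 103 sites. That table does not hold every gene, so some of these gene ends can be starts that it lacks. The NELF pileup of the 162 sites stood lower in the lists than that of the 428 sites with starts on 1 strand. The median percentiles were 63.4 and 61.8 against 73.7 and 75.5 in NELFB:HA and 65.1 and 60.8 against 76.4 and 74.6 in NELFE. The median SPT5 lengths at the 162 sites were 4684 and 4299 bp, against 4632.5 and 4162 bp at the 428.

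SPT5 also had a longer and a shorter side at sites that were given no direction. At the 162 sites without a start in the promoter table, SPT5 passed NELFE 1 by a median of 2638 and 2259 bp on its longer side. On its shorter side the medians were 191.5 and 220 bp. At the 162 sites with starts on both strands the medians were 2473 and 2221 bp on the longer and 335 and 271 bp on the shorter side. SPT5 passed NELFE 1 by more than 500 bp on both sides at 61 (37.7%) and 55 (34.0%) of these sites with starts on both strands in the 2 SPT5 libraries. At the 428 sites with starts on 1 strand it did so at 179 (41.8%) and 140 (32.7%). A longer and a shorter side arise from any uneven peak, so these medians are descriptions and were not tested.

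The sites were spread over chromosomes 1 to 19, with 21 on chromosome 15 and 65 on chromosome 11. They made up 9.502% (chromosome 15) to 17.3% (chromosome 3) of the NELF sites with SPT5 on a chromosome. A separate SPT5 peak lay within 5 kb upstream of the SPT5 peak at 45 and 36 of the 428 sites and within 5 kb downstream at 30 and 24.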
